A study of Mus musculus with 10 samples.

Results

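AMPA receptors are the glutamate-gated channels that carry most fast excitatory transmission, and 10 of the genes that build them were followed through RNA from hippocampal synapses: the pore-forming subunits Gria1, Gria2, Gria3 and Gria4, and the auxiliary subunits Cacng2, Cacng3, Cacng8, Cnih2, Shisa9 and Gsg1l. They were taken by gene symbol, with Ensembl identifiers matched after removal of the version, and all 10 were found among the 22255 genes of the count table. The 26 transcripts of Gria1 to Gria4 were taken from a second table of 102392 transcripts. The RNA came from synaptoneurosomes, sealed fragments of synapses separated from homogenised tissue, of the hippocampus of wild-type C57Bl/6J mice. One group of 5 libraries came from mice given vehicle, and the other group of 5 from mice given AM6545, a CB1 cannabinoid receptor antagonist with little entry into the brain, for a sub-chronic period. The comparison asked whether synaptic RNA differed after the drug. Age, sex and dose are not given in the sources used here, nor whether a library is 1 animal or a pool, so p-values measure only the spread between these libraries, which may be technical.

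Each AMPA receptor is an assembly of GluA subunits, the products of the Gria genes, and the subunit mix sets how long the channel stays open and whether calcium passes. GluA2, once its transcript has been recoded by RNA editing, makes the channel poorly permeable to calcium, and the GluA1 and GluA2 pairing is the classical receptor of hippocampal pyramidal cells. Every Gria gene also carries a pair of alternative exons, flip and flop, of which a mature transcript normally uses one; they encode part of the ligand-binding domain and set desensitisation. Auxiliary subunits ride on the receptor. Transmembrane AMPA receptor regulatory proteins (TARPs, among them the products of Cacng2, Cacng3 and Cacng8) and the cornichon Cnih2 favour delivery and slow the channel. Shisa9 and Gsg1l belong to other families that modulate it.

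The flip and flop exons are shown because the transcript results below turn on them. Each is 115 bases long and lies in the coding sequence. The upstream exon was taken as flop and the downstream as flip, read from the codons they hold. Letters are from GENCODE M21 on GRCm38 (mm10), 5′ to 3′ on the strand of the gene, and capitals mark the bases that differ between the flip and the flop exon of the same gene.

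Gria1 flop, chr11:57309769-57309883, plus strand: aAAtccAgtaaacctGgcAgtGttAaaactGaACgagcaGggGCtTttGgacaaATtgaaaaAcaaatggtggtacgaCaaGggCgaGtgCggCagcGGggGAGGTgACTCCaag
Gria1 flip, chr11:57310608-57310722, plus strand: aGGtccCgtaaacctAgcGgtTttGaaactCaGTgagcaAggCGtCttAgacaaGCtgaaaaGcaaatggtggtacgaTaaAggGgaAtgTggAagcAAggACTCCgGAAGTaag
Gria2 flop, chr3:80691320-80691434, minus strand: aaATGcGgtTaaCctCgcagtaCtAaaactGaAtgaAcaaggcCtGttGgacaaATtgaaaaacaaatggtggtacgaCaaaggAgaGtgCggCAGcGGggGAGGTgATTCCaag
Gria2 flip, chr3:80690404-80690518, minus strand: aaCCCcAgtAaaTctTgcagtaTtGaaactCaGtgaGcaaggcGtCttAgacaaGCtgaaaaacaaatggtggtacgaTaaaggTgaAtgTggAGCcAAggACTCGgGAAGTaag
Gria3 flop, chrX:41654810-41654924, plus strand: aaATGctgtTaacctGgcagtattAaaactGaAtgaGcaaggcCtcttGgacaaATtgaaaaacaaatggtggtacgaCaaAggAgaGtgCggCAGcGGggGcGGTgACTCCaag
Gria3 flip, chrX:41669501-41669615, plus strand: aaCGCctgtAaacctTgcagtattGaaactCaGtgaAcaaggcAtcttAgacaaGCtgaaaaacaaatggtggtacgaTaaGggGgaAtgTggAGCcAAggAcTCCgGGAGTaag
Gria4 flop, chr9:4432773-4432887, minus strand: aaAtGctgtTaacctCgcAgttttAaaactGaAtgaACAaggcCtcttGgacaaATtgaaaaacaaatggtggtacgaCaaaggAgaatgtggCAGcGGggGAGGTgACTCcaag
Gria4 flip, chr9:4427030-4427144, minus strand: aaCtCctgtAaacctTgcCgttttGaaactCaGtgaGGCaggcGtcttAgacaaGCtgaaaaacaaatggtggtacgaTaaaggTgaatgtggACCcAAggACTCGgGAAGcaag

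Flip and flop differed at 36 of the 115 bases in Gria1, 36 in Gria2, 32 in Gria3 and 31 in Gria4. Of these, 15 of 36, 17 of 36, 16 of 32 and 14 of 31 lay within the last 30 bases of the exon. The same kind of exon was more alike between genes than flip was to flop within one gene: flop of Gria3 and flop of Gria4 differed at 6 bases (94.8% identical), and the least alike pair of the same kind was 87.8% identical, against at most 73.0% for flip and flop of one gene.

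In the same GRCm38 annotation the genes lie at chr11:57011387-57330244 (Gria1, plus strand), chr3:80681450-80802835 (Gria2, minus), chrX:41400854-41678601 (Gria3, plus) and chr9:4417896-4796234 (Gria4, minus). The TARP genes lie at chr15:77991748-78120028 (Cacng2, minus), chr7:122670492-122769393 (Cacng3, plus) and chr7:3390683-3415648 (Cacng8, plus). Cnih2 lies at chr19:5092868-5098521 (minus), Shisa9 at chr16:11984113-12270902 (plus) and Gsg1l at chr7:125878420-126082411 (minus). In that annotation exons of Cacng2 overlap A730060N03Rik and those of Cnih2 overlap Yif1a on the opposite strand. The use of strand in counting is not given in the sources used here, so reads of those partners may be held in these values. Small genes on the same strand, Gm25749, Gm22413, Gm23811 and Gm23450, overlap exons of Gria2, Gria3, Gria4 and Cacng8.

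The libraries held 18106112 to 25899794 estimated counts and 16532 to 16867 genes with a count. Dendritic and synaptic transcripts (Camk2a, Shank1, Dlg4, Ddn, Map2 and Homer1) were all present, with a summed level of 1231 to 1316 CPM (counts scaled to library size, here with TMM) in the vehicle libraries and 1111 to 1371 CPM in the AM6545 libraries. Astrocyte markers (6 of 6 found) summed to 3913 to 4504 and 3424 to 4916 CPM, and oligodendrocyte markers (6 of 6) to 14410 to 20920 and 12230 to 28200 CPM, so glial RNA was in the fraction as well. Choroid plexus markers (6 of 6) varied most, from 60.83 CPM in vehicle library 4 to 5038 CPM in vehicle library 1, and from 650.1 to 3988 CPM after AM6545. Markers of CA2 and CA3 pyramidal cells (6 of 6) summed to 470.8 to 597.6 CPM with vehicle and 491.9 to 574.3 CPM with AM6545, and those of oligodendrocyte precursors (6 of 6) to 201.6 to 244 and 177.6 to 260.5 CPM. Microglia (6 of 6) summed to 435 to 535.9 and 404.8 to 570.9 CPM, endothelial cells (5 of 5) to 75.37 to 156.8 and 85.73 to 137.4 CPM, and red blood cells (3 of 3) to 199.4 to 590.4 and 226.4 to 905.8 CPM. Snhg11, the 1 nuclear RNA marker found, was 530.4 to 764 and 572.4 to 900.4 CPM. No marker gene of the lists given here passed an unadjusted edgeR p of 0.05. In bulk RNA, fewer cells or synapses of a type and less RNA in each cannot be told apart.

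None of the 10 AMPA receptor genes passed the test for a difference between AM6545 and vehicle. By edgeR's quasi-likelihood test, 0 of 10 had an adjusted p under 0.05 (adjusted p = 0.9998 for each) and 0 had an unadjusted p under 0.05; DESeq2 and limma-voom also gave 0 on both counts. Across the 14358 genes tested, 0 passed (0%), 270 had an unadjusted p under 0.05 (1.88%), and in 42 (0.293%) the groups did not overlap. For all 10 AMPA receptor genes the groups overlapped. Their log2 fold changes, AM6545 over vehicle, ran from -0.13 to 0.06 with a median of -0.02, against a median of -0.01 over all genes; 3 lay above 0 and 7 below. Apart from Cacng8, every 95% interval lay between 0.784 and 1.23 as a fold.

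Gria1 encodes GluA1, the subunit most tied to activity-dependent receptor delivery. The vehicle libraries, in replicate order, held 556, 609.8, 680.6, 737.7 and 623.4 CPM, and the AM6545 libraries held 672.2, 608.4, 724.2, 636.8 and 513.6 CPM. The highest value was in vehicle library 4 and the lowest in AM6545 library 5, with the other libraries interleaved. The log2 fold change was -0.02 (SE 0.11, 95% interval -0.26 to 0.21).

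Gria2 encodes GluA2 and had the most counts of the 10 genes. Its vehicle values were 1135, 1360, 1647, 1583 and 1479 CPM, and its AM6545 values were 1614, 1364, 1529, 1479 and 1134 CPM. Vehicle library 1 and AM6545 library 5 stood low together, almost at the same level, and the remaining 8 libraries lay between 1360 and 1647 CPM. The fold change was 0.99 with a 95% interval of 0.82 to 1.19 (log2 -0.02, SE 0.13).

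Gria3 encodes GluA3, which pairs with GluA2 in receptors that cycle constitutively at synapses. Vehicle libraries held 194.2, 204.1, 239.4, 239 and 228.4 CPM, and AM6545 libraries 229.5, 200.7, 219.1, 216.8 and 161.6 CPM. Only 1 AM6545 library lay above the vehicle mean of 221 CPM, and 1 lay below the lowest vehicle library. The log2 fold change of -0.10 had a 95% interval of -0.33 to 0.12 (SE 0.11), so the difference was within the spread between libraries.

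Gria4 encodes GluA4, which in the adult hippocampus is mostly a subunit of interneurons. Its values were 38.89, 42.48, 45.59, 48.74 and 45.18 CPM with vehicle and 49.67, 44.4, 43.81, 48.94 and 43.76 CPM with AM6545. It had the smallest spread of the 4 subunits (coefficient of variation 8.37% and 6.36%), with its lowest value in vehicle library 1. Its log2 fold change was 0.06 (SE 0.09, 95% interval -0.13 to 0.26). Interneuron markers (8 of 8 found) summed to 696.6 to 953.7 CPM in the vehicle and 706.7 to 965.2 CPM in the AM6545 libraries, and their part in the Gria4 values was not tested.

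**Figure D1:**
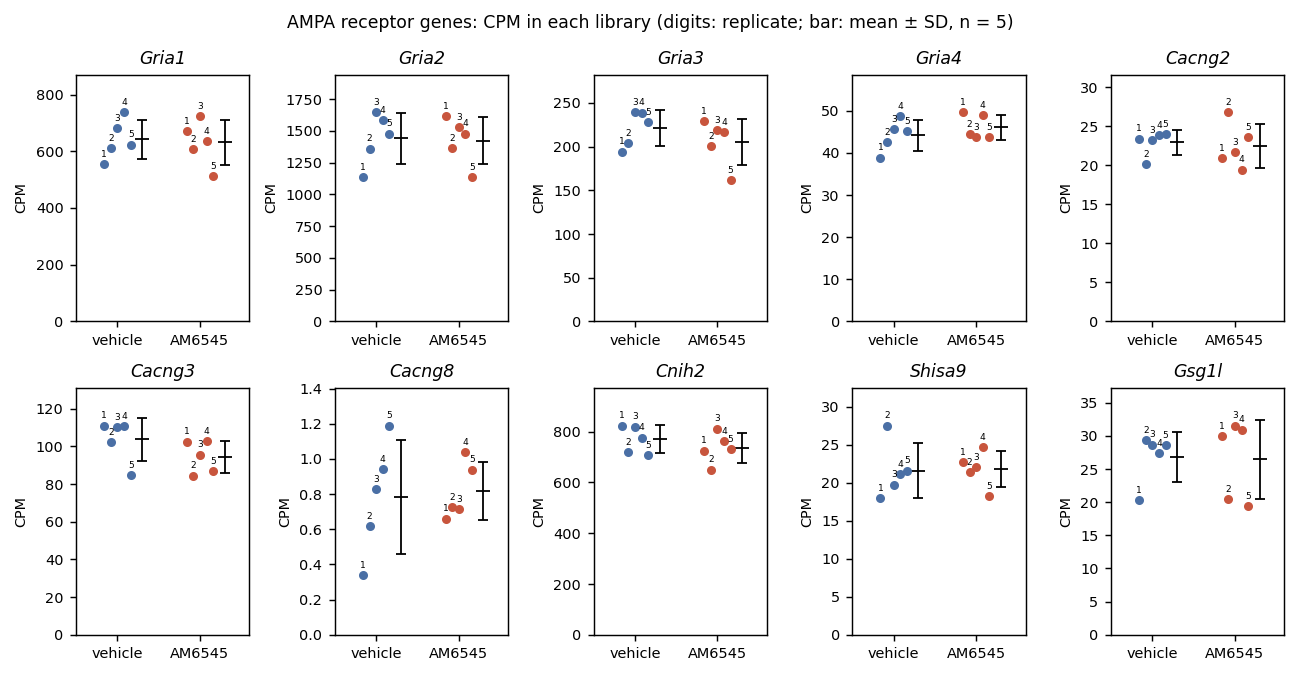
CPM of each AMPA receptor gene in each library, with vehicle libraries in blue and AM6545 libraries in red, digits giving the replicate number and bars the mean ± SD (n = 5). The groups overlap in all 10 panels; Gria2 in vehicle library 1 (1135 CPM) and AM6545 library 5 (1134 CPM) stands below the other 8 libraries.

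Among the TARPs, Cacng2 encodes stargazin, the founding member, which anchors receptors to the postsynaptic scaffold. It was measured at 23.45, 20.18, 23.29, 23.92 and 24.06 CPM with vehicle and at 20.91, 26.83, 21.71, 19.48 and 23.64 CPM with AM6545. The AM6545 libraries spread to both sides of the vehicle libraries, with AM6545 library 2 highest and AM6545 library 4 lowest. The log2 fold change was -0.03 (SE 0.11, 95% interval -0.26 to 0.19).

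Cacng3 encodes the TARP γ-3, a close relative of stargazin found in forebrain neurons. Its vehicle values were 111.1, 102.2, 110.3, 110.6 and 84.66 CPM, and its AM6545 values were 102.6, 84.47, 95.67, 102.9 and 86.93 CPM. All 5 AM6545 libraries lay below the vehicle mean of 103.8 CPM, but vehicle library 5 was as low as the lowest of them. In the edgeR fit this was the largest difference among the 10 genes relative to its error, with a log2 fold change of -0.13 (SE 0.10, 95% interval -0.35 to 0.08). With limma-voom it was -0.02.

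Cacng8 encodes TARP γ-8, known as the TARP enriched in the hippocampus, where receptor number depends on it. In these libraries it was barely detected, with 7 to 28 estimated counts per library. The vehicle values were 0.3398, 0.6157, 0.8298, 0.9421 and 1.19 CPM, and the AM6545 values 0.6607, 0.7237, 0.7164, 1.04 and 0.9395 CPM. Vehicle library 1 was lowest and vehicle library 5 highest, with every AM6545 library between them, and a count of 3, the floor used here, corresponded to 0.116 to 0.166 CPM by library total. Its log2 fold change of 0.05 was the least precise of the 10 (SE 0.32, 95% interval -0.62 to 0.73), which is 0.648 to 1.65 as a fold.

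Cacng8 and its relative Cacng7 were both near the floor. Cacng7, another TARP gene, held 1 to 17 counts per library (mean 0.365 CPM with vehicle and 0.441 CPM with AM6545) and did not pass the filter on low counts. The annotated transcripts of Cacng8, weighted by their counts, had 60.5% G and C bases, higher than 96.3% of tested genes. Its transcripts differed, with 67.2% in Cacng8-201, 65.0% in Cacng8-202 and 52.9% in the 535-base Cacng8-203, which held 39.7% of the few counts. Cnih2 transcripts had 62.3%. The part of base composition in the low Cacng8 value was not tested.

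Cnih2 encodes cornichon-2, which travels with GluA1 receptors out of the endoplasmic reticulum and slows their closing. The vehicle libraries held 824.5, 719, 820.4, 777.1 and 708.3 CPM, and the AM6545 libraries 725.6, 650.4, 812.5, 764.3 and 730.6 CPM. AM6545 library 2 was lowest, and the other 4 AM6545 libraries lay within the vehicle range. The log2 fold change was -0.06 (SE 0.10, 95% interval -0.27 to 0.14).

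Shisa9, also called CKAMP44, is a modulator of desensitisation described in dentate granule cells. Vehicle libraries gave 17.96, 27.52, 19.76, 21.14 and 21.59 CPM, and AM6545 libraries 22.66, 21.35, 22.04, 24.68 and 18.25 CPM, all 5 within the vehicle range. Dentate granule cell markers (6 of 6 found) summed to 493.6 to 625.8 CPM in the vehicle and 500.6 to 581.5 CPM in the AM6545 libraries. The Shisa9 log2 fold change was 0.01 (SE 0.12, 95% interval -0.24 to 0.27).

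Gsg1l encodes a claudin-like protein that, unlike the TARPs, dampens AMPA receptor currents. It was found at 20.29, 29.37, 28.68, 27.36 and 28.6 CPM with vehicle and at 29.93, 20.47, 31.58, 30.96 and 19.38 CPM with AM6545. The libraries fell into 3 low ones (vehicle 1, AM6545 2 and AM6545 5, all under 21 CPM) and 7 high ones (all above 27 CPM), with both treatments in each. AM6545 library spread was wide (coefficient of variation 22.7% against 13.9%), and the log2 fold change was -0.02 (SE 0.15, 95% interval -0.34 to 0.29).

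**Figure D2:**
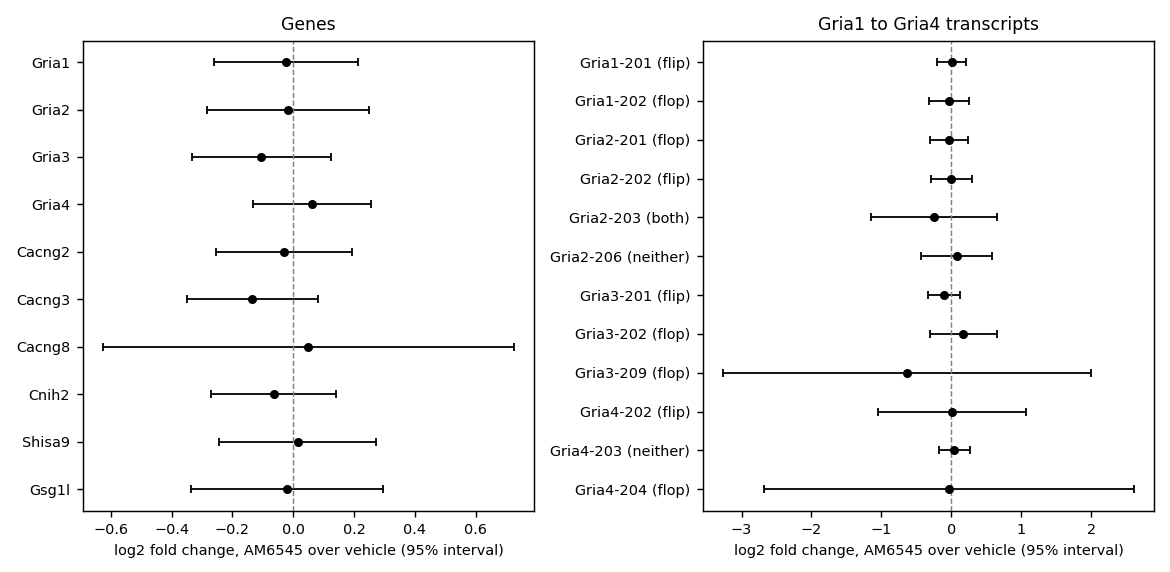
Log2 fold changes, AM6545 over vehicle, from the edgeR fits to genes (left) and to the Gria1 to Gria4 transcripts that hold at least 5% of their gene's counts and were tested (right), with 95% intervals as bars. Every interval spans 0; Cacng8 is the widest among the genes (-0.62 to 0.73), and the horizontal scales of the panels differ.

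To compare the genes with each other, transcript counts were divided by transcript length and scaled to the same sum in every library, as TPM values are, giving a length-scaled level. Over the 10 libraries Cnih2 had the highest mean level, 1095, followed by Gria2 at 603.8, Gria1 at 227.2, Gria3 at 90.44 and Cacng3 at 69.67. Then came Gria4 at 30.31, Gsg1l at 13.24, Shisa9 at 13.19, Cacng2 at 8.0 and Cacng8 at 1.69. The mRNA of the auxiliary subunit Cnih2 thus stood above that of every pore-forming subunit, and among 14337 genes Cnih2 ranked 87, Gria2 ranked 209 and Cacng8 ranked 12399. Neighbours in this order had ranges over libraries that did not overlap, except Gria3 with Cacng3 (69.34 to 100.4 and 59.04 to 79.02) and Gsg1l with Shisa9 (8.80 to 16.07 and 10.47 to 18.24).

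**Figure D3:**
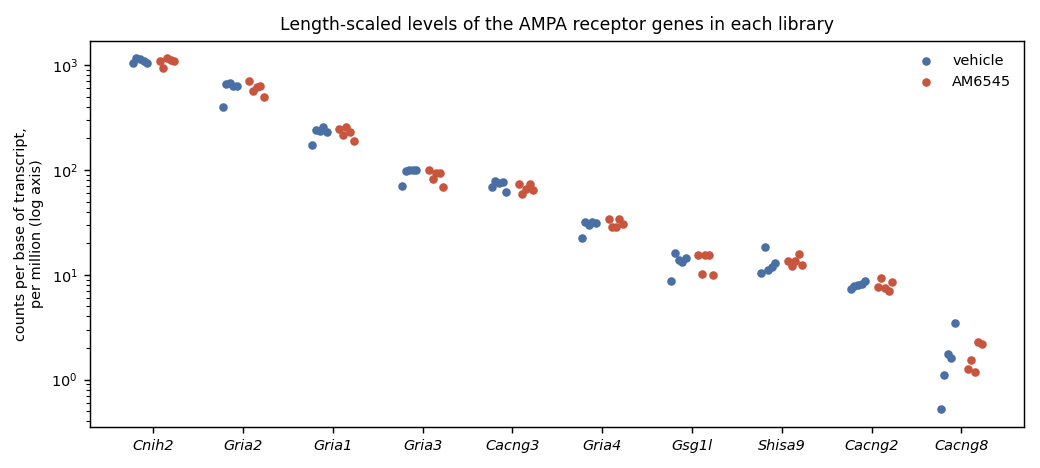
Length-scaled level (counts per base of transcript, scaled as TPM, log axis) of each AMPA receptor gene in each library, vehicle in blue and AM6545 in red. Genes run from Cnih2 (mean 1095) to Cacng8 (mean 1.69), and within each gene the treatments overlap.

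On the same length scale, Gria2 made up most of the subunit RNA. It held 59.81%, 64.17%, 65.1%, 62.11% and 63.98% of the summed Gria1 to Gria4 level in the vehicle libraries and 64.8%, 63.34%, 62.38%, 63.98% and 63.27% in the AM6545 libraries. Vehicle library 1 had the lowest share and vehicle library 3 the highest, so the AM6545 libraries lay within the vehicle range. The means were 63.0% ± 2.10 and 63.5% ± 0.902 (SD, n = 5), a difference of 0.520 percentage points (two-sided exact permutation test, p = 0.667, smallest possible p 0.00794). This share depended on the length and transcripts used. With protein-coding transcripts only it was 56.3% and 57.1%. With the merged exon length of each gene it was 40.5% and 40.8%, so Gria2 no longer made up most of the level. That length was 15548 bases for Gria2 and 6043 for Gria1, so the order of these subunits also depends on the length used.

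With transcript lengths, the other subunits followed in the order Gria1, Gria3 and Gria4 in every library. Gria1 held 24.0% ± 1.58 with vehicle and 24.0% ± 1.04 with AM6545 (SD, n = 5), and Gria4 held 3.11% ± 0.195 and 3.31% ± 0.377. For Gria3 the vehicle shares were 10.57%, 9.416%, 9.597%, 9.737% and 9.992%, and the AM6545 shares 9.179%, 9.188%, 9.276%, 9.456% and 8.809%. Here 4 of the 5 AM6545 libraries lay below the lowest vehicle library, and only AM6545 library 4 reached into the vehicle range. Its mean was 0.681 points lower with AM6545, a difference given without a test because only the Gria2 share had one planned.

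Cacng3 held the largest share of the 3 TARP genes followed as members. These shares rest on the low Cacng8 value, and whether counting, annotation or library chemistry bears on that value was not tested. Cacng3 held 88.0% ± 2.66 of their summed length-scaled level with vehicle and 87.3% ± 2.19 with AM6545 (SD, n = 5), while Cacng2 held 9.86% ± 1.14 and 10.5% ± 2.01. Cacng8 held 0.685%, 1.26%, 2.06%, 1.87% and 4.77% in the vehicle libraries and 1.52%, 2.20%, 1.59%, 2.73% and 2.92% in the AM6545 libraries. Vehicle library 5 stood highest and vehicle library 1 lowest, and the means of 2.13% ± 1.57 and 2.19% ± 0.639 did not differ beyond this spread (two-sided exact permutation test, n = 5 a group, p = 0.976). With merged exon lengths the Cacng8 share was 0.821% and 0.908%.

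Of the 26 Gria transcripts 18 passed the filter, and none of these passed the test. By edgeR 0 of 18 had an adjusted p under 0.05 and 0 an unadjusted p under 0.05; DESeq2 gave 0 on both counts, and limma-voom gave 0 adjusted and 1 unadjusted (Gria3-206). In the whole transcript table, 1 of 31848 transcripts passed (0.00314%), 627 had an unadjusted p under 0.05 (1.97%), and the groups did not overlap in 183 (0.575%). For all 18 the groups overlapped. The test of usage, which asks whether a transcript moved relative to the others of its gene, called 0 of the 18 with edgeR's diffSpliceDGE, with 0 at an unadjusted p under 0.05, against 5 of 25724 transcripts overall (0.0194%). On simulated counts this usage test called few of the changes put in, so the absence of calls is weak information.

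Gria1 was mostly flop. The flop transcript Gria1-202 and the flip transcript Gria1-201 held 72.5% and 27.4% of the gene's counts. The flop share of flip plus flop counts was 73.95%, 73.29%, 70.79%, 73.76% and 72.04% with vehicle and 72.8%, 70.26%, 75.48%, 73.42% and 67.73% with AM6545. AM6545 library 3 lay above the vehicle range, and AM6545 libraries 2 and 5 lay below it. The means were 72.8% ± 1.33 and 71.9% ± 3.0 (SD, n = 5; two-sided exact permutation test, p = 0.603).

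Gria2 was mostly flip. The flip transcript Gria2-202 held 55.9% of its counts and the flop transcript Gria2-201 held 24.5%. Its flop share was 34.13%, 29.03%, 27.78%, 31.96% and 31.16% with vehicle and 29.71%, 30.08%, 31.44%, 29.92% and 29.59% with AM6545, so the AM6545 libraries were closely grouped inside the vehicle range. The means were 30.8% ± 2.49 and 30.2% ± 0.747 (SD, n = 5; two-sided exact permutation test, p = 0.635). The level of this share depended on transcript length, and the flop transcript has 10371 bases and the flip transcript 4026: after division by length the share was 14.8% and 14.3%.

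Other Gria2 transcripts held no flip or flop exon of their own, or both. Gria2-206, annotated as retaining an intron, held 9.31% of the counts. Its values were 72.47, 148.1, 124, 155.9 and 143.2 CPM with vehicle and 173.3, 93.27, 134.4, 162.9 and 115.9 CPM with AM6545, with vehicle library 1 lowest (log2 fold change 0.08, SE 0.23, 95% interval -0.43 to 0.58). Gria2-203, annotated for nonsense-mediated decay, contains both the flip and the flop exon and held 5.91% of the counts, from 40.74 to 131.2 CPM with vehicle and 24.86 to 104.4 CPM with AM6545. Both classes were left out of the flop share.

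Gria3 was also mostly flip, with 80.5% of its counts on Gria3-201. Flop was carried by Gria3-202 (8.60%) and Gria3-209 (7.27%), and Gria3-209 was at 0 in AM6545 libraries 2 and 5, the libraries in which Gria3-202 was highest (26.41 and 24.54 CPM). With both counted, flop made up 13.49%, 17.82%, 17.82%, 17.47% and 17.04% with vehicle and 15.77%, 13.71%, 16.93%, 17.63% and 15.71% with AM6545. Vehicle library 1 and AM6545 library 2 were low and the rest lay from 15.71% to 17.82%. The means were 16.7% ± 1.84 and 15.9% ± 1.49 (SD, n = 5; two-sided exact permutation test, p = 0.484), or 26.7% and 25.2% after division by transcript length.

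For Gria4, 65.7% of the counts fell on Gria4-203, a transcript of 11 exons that ends before the flip and flop exons. It was steady, from 24.75 to 32.23 CPM with vehicle and from 27.24 to 33.25 CPM with AM6545 (log2 fold change 0.04, SE 0.10, 95% interval -0.17 to 0.26). The flip transcript Gria4-202 held 10.6% of the counts and the flop transcripts Gria4-204 and Gria4-201 held 15.3% and 8.54%, with 17 to 167 flip and 143 to 324 flop counts per library. Gria4-204 was at 0 in vehicle library 2 and AM6545 library 3, and Gria4-201 was at 0 in 6 libraries and was not tested.

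The Gria4 flop share had the largest SD of the 4 genes in both groups. It was 68.61%, 66.2%, 75.15%, 59.23% and 73.64% with vehicle and 74.62%, 52.42%, 93.92%, 80.76% and 48.41% with AM6545. AM6545 libraries lay both above and below all vehicle libraries, and the means were 68.6% ± 6.36 and 70.0% ± 19.3 (SD, n = 5; two-sided exact permutation test, p = 0.865). Of the 6 share tests 0 had a p under 0.05. A limit applies to all 4 flop shares: estimated counts divide reads over whole transcripts, and flip and flop transcripts also differ outside the exon. Gria2-201 has 6345 such bases that its partner lacks and Gria3-201 has 2241, against 0 and 147 in the Gria1 pair. For Gria4 there are 301 in Gria4-202 that Gria4-204 lacks, and 156 the other way.

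**Figure D4:**
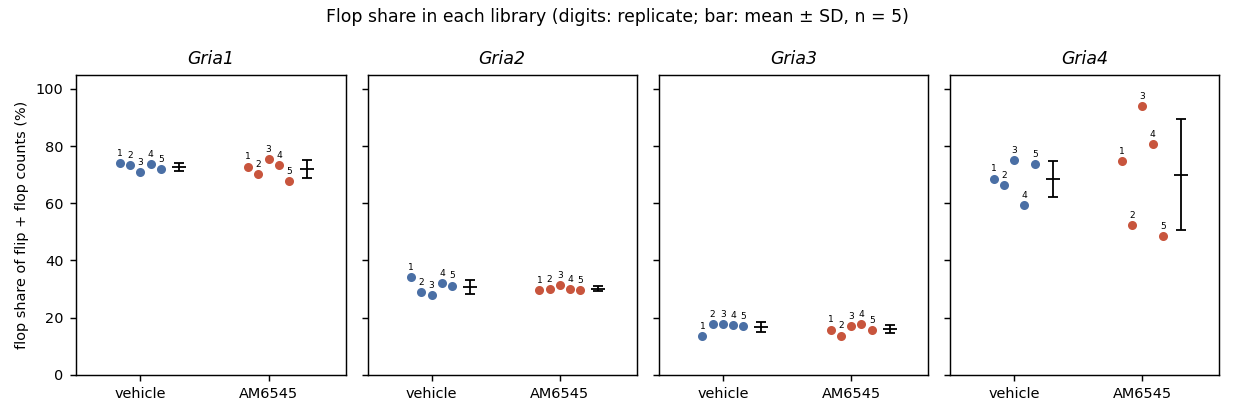
Flop share of flip plus flop counts (percent) in each library for Gria1 to Gria4, with digits for the replicate and bars for the mean ± SD (n = 5). Gria1 and Gria4 lie above 48% in every library and Gria2 and Gria3 below 35%; the AM6545 libraries of Gria4 span 48.41% to 93.92%.

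Gria1, Gria2 and Gria3 moved together from library to library. Pearson's r of log2 CPM over the 10 libraries, given as a description, was 0.908 for Gria1 with Gria2, 0.913 for Gria2 with Gria3 and 0.884 for Gria1 with Gria3. Gsg1l followed them as well, with r of 0.763, 0.818 and 0.763 for Gria1, Gria2 and Gria3, and for Gria4 these were 0.576, 0.742 and 0.546. Over all 45 pairs of the 10 genes the median r was 0.287, with 33 pairs positive and the lowest value, -0.667, between Cacng2 and Gsg1l. These values share library size scaling and the makeup of each preparation.

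Vehicle library 1 and AM6545 library 5 accounted for most of the low values. Vehicle library 1 was the lowest library for 3 of the 10 genes and the highest for 2 (Cacng3 and Cnih2), AM6545 library 5 was the lowest for 4, and the median deviation of the 10 genes from their means was -0.20 and -0.21 on the log2 scale. Vehicle library 4 had the highest median deviation, 0.13. Vehicle library 1 also had the highest choroid plexus and endothelial sums (5038 and 156.8 CPM) and the lowest Snhg11 (530.4 CPM). AM6545 library 5 had the lowest sums of CA1 pyramidal cell (333.4 CPM, 5 of 5 found), astrocyte (3424 CPM) and microglia markers (404.8 CPM) and of dendritic and synaptic transcripts (1111 CPM), but its CA2 and CA3 sum was the highest of the AM6545 libraries (574.3 CPM). The part of these in the AMPA receptor values was not tested.

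**Figure D5:**
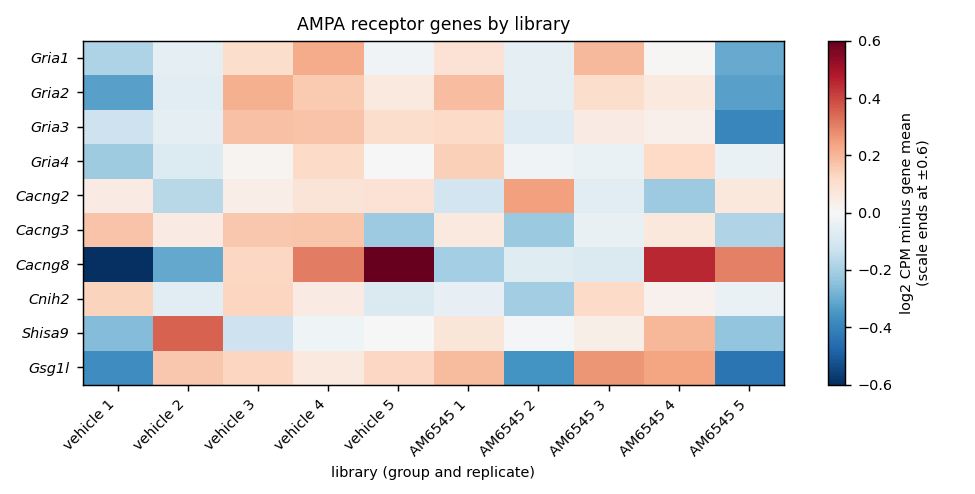
Log2 CPM of each AMPA receptor gene minus its mean over the 10 libraries, with blue below and red above the mean and the colour scale ending at ±0.6. Columns are libraries by group and replicate. Vehicle library 1 and AM6545 library 5 are blue for Gria1, Gria2, Gria3, Gria4, Shisa9 and Gsg1l.

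Among 9595 tested genes with a mean of at least 10 CPM, those whose log2 CPM followed each subunit most closely over the 10 libraries were named, again as a description. For Gria1 they were Synpr (r = 0.955), a synaptic vesicle protein, Kidins220 (0.950) and Lrig2 (0.944). For Gria2 they were the neuronal glutamate transporter Slc1a1 (0.969), the chloride transporter Clcn3 (0.962) and 4932438A13Rik (0.962). Gria3 was followed by the calcium channel subunit Cacna1e (0.991), D630045J12Rik (0.964) and the potassium channel Kcnma1 (0.954). Gria4 was followed by Mapk8ip2 (0.920), a scaffold of the JNK pathway, Atp8a2 (0.913) and the proline transporter Slc6a7 (0.911).

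A list of 41 further genes of AMPA receptor biology was followed in the same fit; 40 were tested and Cacng7 was not. None passed: 0 were higher and 0 lower at an adjusted edgeR p under 0.05, and 0 had an unadjusted p under 0.05, whereas DESeq2 gave 0 adjusted and 1 unadjusted (Syndig1). Their median log2 fold change was 0.04, with 24 above 0 and 16 below, against 48.1% of all genes above 0.

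Of the 7 tested genes related to the auxiliary subunits, 4 lay above 0 and 3 below. The 2 of smallest p were both TARPs. Cacng5 was 9.369 to 16.85 CPM with vehicle and 10.6 to 21.55 CPM with AM6545 (log2 0.30, SE 0.19, 95% interval -0.09 to 0.69). Cacng4 was 6.117 to 9.283 and 7.035 to 9.395 CPM (log2 0.20, SE 0.14, 95% interval -0.10 to 0.50).

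Genes of proteins that assemble or turn over AMPA receptors in the endoplasmic reticulum lay below 0 in 5 of 6 cases. Of all genes 48.1% lay above 0, and 0 of these 6 had an unadjusted edgeR p under 0.05. Abhd6, a hydrolase that binds newly made subunits and also breaks down the endocannabinoid 2-AG, was 125.8 to 206.6 CPM with vehicle and 127.2 to 168.5 CPM with AM6545 (log2 -0.15, SE 0.13, 95% interval -0.43 to 0.12). Its highest value was in vehicle library 1. Its relative Abhd12 was 460.4 to 588.5 and 422.5 to 543.5 CPM (log2 -0.11, SE 0.11, 95% interval -0.34 to 0.12). Neither difference exceeded the spread between libraries.

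Among the genes of 13 surface and secreted partners, 6 lay above 0 and 7 below. Syndig1, a membrane protein of excitatory synapses that binds AMPA receptors, had the smallest p of the 40 genes. Its values were 74.57, 75.54, 77.17, 79.34 and 69.91 CPM with vehicle and 69.45, 63.69, 68.5, 68.13 and 70.26 CPM with AM6545. The AM6545 libraries lay below the vehicle ones except that AM6545 library 5 stood above vehicle library 5 (log2 -0.15, SE 0.08, 95% interval -0.32 to 0.03). Nptxr, the pentraxin receptor that clusters AMPA receptors from outside the cell, was 99.76 to 173.6 CPM with vehicle and 153.6 to 193.3 CPM with AM6545 (log2 0.22, SE 0.13, 95% interval -0.05 to 0.49), and vehicle library 1 was its lowest.

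Genes of scaffolds and trafficking partners lay above 0 in 10 of 11 cases, against 48.1% of all genes. By edgeR 0 of the 11 had an unadjusted p under 0.05. Vehicle library 1 was the lowest library for Dlg1, Dlg2, Dlg3, Dlg4, Akap5 and Arc, but not for the other genes of this group. The part of that library in the count above 0 was not tested. Dlg3, which encodes the scaffold SAP102, was 78.74 to 104.2 CPM with vehicle and 83.71 to 122.1 CPM with AM6545 (log2 0.17, SE 0.11, 95% interval -0.07 to 0.41). Grip1, which binds the GluA2 tail, was 10.14 to 12 and 9.589 to 13.73 CPM (log2 0.17, SE 0.12, 95% interval -0.08 to 0.42). The median of the 11 was 0.11 on the log2 scale, and none had groups that did not overlap, against 0.293% of all genes.

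The 3 genes of the adenosine deaminase family all lay above 0, against 48.1% of all genes, and 0 had an unadjusted edgeR p under 0.05. Adarb1, which encodes the enzyme that recodes the Gria2 transcript, was 20.58, 22.83, 19.65, 20.56 and 20.4 CPM with vehicle and 20.99, 24.86, 26.12, 22.6 and 22.05 CPM with AM6545. All 5 AM6545 libraries were above the vehicle mean of 20.81 CPM, but only 2 were above the highest vehicle library (log2 0.16, SE 0.10, 95% interval -0.04 to 0.37). Adar was 34.95 to 48.69 and 37.31 to 53.35 CPM (log2 0.16, SE 0.12, 95% interval -0.09 to 0.41). Editing of the Gria2 transcript itself was not analysed here.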

How the data were processed

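RNA of 10 libraries of hippocampal synaptoneurosomes was sequenced with a SMARTer kit for very small inputs, as the labels' protocols state. The authors deposited estimated counts per gene and per transcript, not normalized; 38.6% and 41.6% of their cells were not whole numbers. Salmon 1.5.2 and the build mm10 are listed per the submitters' processing notes, without their roles; the annotation release and the use of strand are not given in the sources used here. Groups and replicate numbers came from the titles. The AMPA receptor genes, gene lists and tests were chosen with earlier results of these data known.

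Counts were rounded to whole numbers and tested, two-sided, with edgeR 4.0.16 in R 4.3.3: TMM, filterByExpr (minimum count 10, minimum total 15), robust quasi-likelihood fits on all genes or all transcripts, the group as the only term, and Benjamini-Hochberg adjustment with a threshold of 0.05. Transcript usage was tested with diffSpliceDGE over genes with at least 2 tested transcripts. Shares were compared by exact permutation over 252 arrangements. Python 3.11.15, numpy 2.4.6, pandas 2.3.3, scipy 1.17.1 and matplotlib 3.10.9 were used, with DESeq2 1.42.0 and limma 3.58.1 for alternatives. Scripts were tested on simulated data.

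Symbols were matched for 22155 of 22255 genes, and names and lengths from GENCODE M21 (GRCm38) for 101527 of 102392 transcripts. Only 11 gene and 13 transcript identifiers carried the version suffix of that release, so coordinates, lengths and flip or flop assignments are those of M21 and may differ from the annotation used for counting. Named were the 10 genes, every Gria transcript with at least 5% of its gene's counts, in each of 5 pathway groups the 2 genes of smallest p, and the 3 genes most correlated with each subunit at a mean of at least 10 CPM. The Gria3 share of Gria1 to Gria4, Cacng7 and the low Cacng8 value were singled out after their values were seen. Malat1, Meg3 and Miat, listed as markers of nuclear RNA, were not analysed here, and not every marker list is reported. Alternatives were other scalings, filters, tests and lengths, a replicate block, and each library left out in turn. PCR copies cannot be told from separate molecules here, so the floor of 3 counts covers counting error only, and the division of reads between transcripts adds an error that the tables do not give.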

Additional observations from a re-analysis of the deposited data

Results flagged for a closer look

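In 4 of 58 groups of 5 libraries 1 library stood apart from the rest of its group by Dixon's criterion, where chance gives about 2.9. Cacng2 was 20.18 CPM in vehicle library 2, with the next vehicle library at 23.29 CPM. Gsg1l was 20.29 CPM in vehicle library 1, with the next vehicle library at 27.36 CPM; AM6545 libraries 2 and 5 lay as low. The flop share of Gria2 was 31.44% in AM6545 library 3, with the next AM6545 library at 30.08%. The flop share of Gria3 was 13.49% in vehicle library 1, with the next vehicle library at 17.04%. The causes were not tested.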

How the results depend on the processing

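No AMPA receptor gene, Gria transcript, usage test or pathway gene passed the threshold under any alternative run (0 calls in each), and no share reached a p under 0.05. Leaving out each library in turn, the difference in share (AM6545 minus vehicle, percentage points) ran from -1.71 to 0.226 for Gria1 flop, -1.42 to 0.166 for Gria2 flop, -1.59 to -0.215 for Gria3 flop, -4.51 to 6.87 for Gria4 flop, -0.287 to 1.04 for Gria2 and -0.298 to 0.723 for Cacng8. The log2 fold changes ran from -0.078 to 0.042 for Gria1, -0.091 to 0.055 for Gria2, -0.101 to 0.018 for Cacng2, -0.135 to 0.253 for Cacng8, -0.045 to 0.116 for Shisa9 and -0.105 to 0.073 for Gsg1l, so the direction of these 6 turned; Gria3, Gria4, Cacng3 and Cnih2 kept theirs. For transcripts they ran from -0.056 to 0.054 (Gria1-201), -0.114 to 0.046 (Gria1-202), -0.088 to 0.047 (Gria2-201), -0.065 to 0.080 (Gria2-202), -0.069 to 0.189 (Gria2-206), -0.266 to 0.268 (Gria4-202), -0.009 to 0.079 (Gria4-203) and -0.422 to 0.278 (Gria4-204). With all libraries, direction turned under limma-voom for Cacng8 (-0.10), Gria1-201 (-0.043), Gria2-202 (-0.041), Gria4-202 (-0.28) and Gria4-204 (0.23). It also turned for Gria1-201 with DESeq2 size factors (-0.005), no filter (-0.004) and the DESeq2 test (-0.005), and for Gria2-202 with these 3 (-0.009, -0.007 and -0.009) and with at least 10 counts in every library (-0.001). Under limma-voom Cacng3 moved from -0.13 to -0.02 and Cacng2 from -0.03 to -0.12. The causes were not tested.

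Libraries of the same replicate number did not deviate together in every case (correlations -0.14, -0.186, 0.232, 0.393 and 0.0646). For numbers 3 and 4 the libraries of both groups were closest to each other, but not every library was closest to its own number. Whether the numbers pair the samples is not given in the sources used here, and these correlations cannot decide it. With the replicate number as a block, calls among the AMPA receptor genes, Gria transcripts and pathway genes stayed at 0, 277 genes had an unadjusted p under 0.05 against 270, Gria4-202 turned to -0.27, and exact sign-flip tests of the shares gave p of 0.625 to 1 (smallest possible 0.0625). The count of 270 rose to 578, 414 and 504 without vehicle library 2, vehicle library 4 or AM6545 library 3, fell to 165 without AM6545 library 4, and was 433 without a filter and 710 with limma-voom. For transcripts the 627 became 943 without vehicle library 2, 2849 without a filter and 1227 with limma-voom, and the 1 call ranged from 0 to 11, the latter with DESeq2. Depth limits Cacng8 (7 to 28 counts) and the Gria4 flop share (17 to 167 flip counts), among others.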

Other observations

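The 10 genes were unlike in sequence as well as in level. Weighted by transcript counts, Gria2 transcripts had 41.7% G and C bases, higher than 9.05% of tested genes, Gria3 43.4% and Gria4 43.5%, while Cnih2 had 62.3% and Cacng8 60.5%, against a median of 50.3%. Cnih2 and Cacng8 were also the shortest (1335 and 1291 bases by weighted length, median of all genes 2872), although they stood at the top and the bottom of the length-scaled levels.

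Gria3-206, which like Gria2-203 is annotated for nonsense-mediated decay and holds both the flip and the flop exon, held 12 to 258 counts per library. It was 8.671, 2.029, 0.6251, 0.4952 and 2.916 CPM with vehicle and 10.12, 5.127, 4.164, 5.096 and 1.333 CPM with AM6545, with library 1 of each group highest. Its log2 fold change was 0.81 (SE 0.78, 95% interval -0.92 to 2.54). Without vehicle library 1 it was 1.76 (SE 0.68, 95% interval 0.21 to 3.31, edgeR adjusted p = 0.9999), with limma-voom 1.68 and with the replicate block 1.29; in the first and the second of these its unadjusted p was under 0.05. Without AM6545 library 1 it was 0.41. This transcript was singled out after its values were seen.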
